A study of Mus musculus and Rattus norvegicus with 96 samples.

Results

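The 10 genes described here encode serum proteins that the liver makes in an acute-phase response, among them the 3 chains of fibrinogen. They are Saa1, Saa2, Orm1, Orm2, Lcn2, Hp, Hpx, Fga, Fgb and Fgg, chosen by name from the 24543 genes of the mouse liver count table, and their levels are counts per 1000000 of the column total (CPM). All 10 were among the 13370 genes that passed the filter on low counts. Total RNA was sequenced from livers of 12 male B6C3F1 mice of 10 to 11 weeks, 6 given water (Con) and 6 given 600 ppm phenobarbital in the drinking water for 7 days (PB). Each liver gave 4 preparations, so there were 8 groups of 6 libraries and 48 libraries in all. FFPE was fresh liver put straight into 10% neutral buffered formalin for 18 h and embedded in paraffin. A frozen piece of the same liver was divided later into FR (kept frozen), FR>FFPE (the same formalin step after freezing) and FR>OH (70% ethanol in place of formalin), so FFPE alone came from another piece of tissue. All mice were of the same hybrid strain and sex, and each liver was collected at a single time after the 7 days.

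In the acute-phase response, cytokines released at a site of injury or infection, above all interleukin-6 and interleukin-1, act on hepatocytes and change which secreted proteins they make. Interleukin-6 works through its receptor, JAK kinases and the transcription factor STAT3, and interleukin-1 through NF-kB, with C/EBP factors taking part in both. Serum amyloid A (Saa1, Saa2) travels on high-density lipoprotein, orosomucoid (Orm1, Orm2) binds basic drugs and steroids, lipocalin-2 (Lcn2) binds the iron carriers of bacteria, haptoglobin (Hp) binds free haemoglobin and hemopexin (Hpx) binds free haem. Fga, Fgb and Fgg encode the alpha, beta and gamma chains of fibrinogen, the precursor of the fibrin clot.

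The deposited counts gave total counts per library of 4952797 to 13702672, lowest in FFPE. Cyp2b10, the usual marker of a phenobarbital response, was at most 2.45 CPM in Con and at least 1078 CPM in PB, as the labels state. Hepatocyte markers (8 genes) summed to 25952 CPM or more in every library, while the 10 neutrophil markers summed to 2.02 to 20.0 CPM. No library repeated another, and the 4 libraries of a mouse were nearest each other in all 48 cases. The library titles carry 5 codes, L1 to L5, that overlap little between preparations. This code is called the lane here, although the labels do not say what it stands for. Ribosomal precursor RNA, which is part of the total that CPM divides by, was higher in the embedded tissue: Rn45s was at 4206 to 13056 CPM in FR, at 22316 to 51274 CPM in FR>FFPE, at 24574 to 68196 CPM in FR>OH and at 81270.2 to 127578 CPM in FFPE.

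In frozen liver these genes covered a wide range of levels. Per kilobase of exon, the median over the 12 FR libraries was highest for Hpx, at 6176 CPM per kb, followed by Saa2 at 5122 and Hp at 5036 CPM per kb. Fga had a median of 4136.5, Saa1 of 3788, Fgg of 3358, Fgb of 2318 and Orm1 of 2252.5 CPM per kb, while Lcn2 stood at 418 and Orm2 at 305 CPM per kb. The mice differed so much that the ranges of neighbouring genes in this order overlapped, and Saa2 alone ran from 13.1 to 14611 CPM per kb. Saa1 (chromosome 7, 46740499 to 46742980) and Saa2 (chromosome 7, 46751833 to 46754314) are neighbours with nearly the same sequence, as are Orm1 (chromosome 4, 63344556 to 63348163) and Orm2 (chromosome 4, 63362449 to 63365877), all on GRCm38. Reads that fit both copies were divided by an estimate, so the split within each pair is less certain than its sum. The fibrinogen genes lie side by side on chromosome 3, Fgg at 83007724 to 83015056, Fga at 83026153 to 83033617 and Fgb at 83042246 to 83049863, with Fgb on the minus strand. Lcn2 is on chromosome 2 (32384637 to 32387739), Hp on chromosome 8 (109575128 to 109579172) and Hpx on chromosome 7 (105591611 to 105600116).

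The sequences just before the starts are shown for the serum amyloid A pair, for Fgb, and for Orm2 and Lcn2, the other members with the largest range. These are the 250 bases that end at the base before the start, from RefSeq on GRCm38.p6, on the gene's strand and from 5′ to 3′. Of the 10 genes, 8 had an entry, and Orm1 and Hp did not. Capitals mark matches, on either strand, to TTGCNNAA (a C/EBP motif), TTCNNNGAA (a STAT motif), CTGGGAA (the core of an interleukin-6 response element) and an NF-kB motif (GGG, any 3 bases, TTCC).
Saa1, chr7:46742981-46743230, minus strand: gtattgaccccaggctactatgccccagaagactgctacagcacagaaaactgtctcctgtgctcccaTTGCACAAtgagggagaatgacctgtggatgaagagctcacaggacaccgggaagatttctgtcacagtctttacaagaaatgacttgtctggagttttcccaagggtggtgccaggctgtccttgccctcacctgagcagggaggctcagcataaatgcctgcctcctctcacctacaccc
Saa2, chr7:46751583-46751832, plus strand: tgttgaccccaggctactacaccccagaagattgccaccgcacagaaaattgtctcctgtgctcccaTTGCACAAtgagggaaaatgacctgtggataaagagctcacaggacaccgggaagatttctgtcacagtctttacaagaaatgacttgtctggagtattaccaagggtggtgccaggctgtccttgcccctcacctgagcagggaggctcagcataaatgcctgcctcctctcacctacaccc
Orm2, chr4:63362199-63362448, plus strand: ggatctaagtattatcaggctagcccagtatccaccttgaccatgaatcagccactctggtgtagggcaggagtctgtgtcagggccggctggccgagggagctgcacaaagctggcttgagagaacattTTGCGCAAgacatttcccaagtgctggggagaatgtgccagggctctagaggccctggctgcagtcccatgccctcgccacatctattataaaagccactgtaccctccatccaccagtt
Lcn2, chr2:32387740-32387989, minus strand: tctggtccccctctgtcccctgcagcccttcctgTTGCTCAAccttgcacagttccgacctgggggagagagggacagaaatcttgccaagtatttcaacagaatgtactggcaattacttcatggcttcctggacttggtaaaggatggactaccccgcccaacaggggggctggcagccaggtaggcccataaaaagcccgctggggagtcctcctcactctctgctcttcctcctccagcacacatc
Fgb, chr3:83049864-83050113, minus strand: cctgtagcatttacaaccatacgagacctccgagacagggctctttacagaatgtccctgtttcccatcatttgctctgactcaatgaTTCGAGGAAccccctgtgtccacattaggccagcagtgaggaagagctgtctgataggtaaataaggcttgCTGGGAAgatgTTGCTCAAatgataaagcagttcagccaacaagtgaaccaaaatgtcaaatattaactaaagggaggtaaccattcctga

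The windows of Saa1 and Saa2 were the same at 238 of 251 aligned positions (94.8%), and both held TTGCACAA, 182 and 183 bases before the start. Orm2 held TTGCGCAA and Lcn2 TTGCTCAA. Across the 8 windows, 7 held a C/EBP match (all but Fgg), against 9.56% of 32851 mouse promoter windows of the same length. A STAT match stood in Fga and Fgb, against 7.02% of all windows, and the interleukin-6 core stood in Fgb and Fgg, against 9.1%. In Fgb the STAT match began 162, the core 91 and the C/EBP match 80 bases before the start, without overlap. None of the 8 windows held the NF-kB letters, which 4.65% of all windows did. The windows of Saa1 and Saa2 are nearly the same, so their matches are not separate cases. These are matches of letters and not measured binding, and their part in the levels of the genes was not tested.

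The serum amyloid A genes varied more between mice than between preparations or treatments. In FR libraries of Con mice, Saa1 was at 36.2 CPM in mouse 21C and at 1466, 2092, 2522, 3203 and 4183 CPM in mice 8C, 8D, 90C, 8A and 82B. In FR libraries of PB mice, Saa1 was at 47.9 CPM in mouse 20D, 71.4 in 18D and 126.6 in 18B, and at 2997.5, 5792 and 6506 CPM in 75C, 80B and 20B. The libraries thus lay in a low set of 4 mice, 1 of them Con and 3 of them PB, and a high set of 8 mice, with no value between 126.6 and 1466 CPM.

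Saa2 showed the same gap over a wider range. Its FR level was 8.52 CPM in 21C, 17 in 20D, 28.5 in 18D and 41.8 in 18B, and 1365 to 9526.5 CPM in the other 8 mice. The highest mouse, 20B, was 1118-fold above the lowest, 21C, for Saa2 and 180-fold (179.7) for Saa1. Saa2 made up 16.5 to 31.1% of the pair's counts in the libraries of those 4 mice, the FFPE library of 20D (54.5%) aside, and 47.6 to 62.7% in all libraries of the other 8 mice.

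Lcn2 and Orm2 followed the same mice. Lcn2 in FR was at 2.58 CPM in 21C, 12.2 in 20D, 15.0 in 18D and 17.1 in 18B, and then at 122 (8C) to 2165 CPM (80B). Orm2 in FR was at 5.59 CPM in 21C and at 36.4, 37.2 and 54 CPM in 18D, 18B and 20D, against 114 (8C) to 2202 CPM (20B). The highest mouse was 839-fold (838.9) above the lowest for Lcn2 and 394-fold for Orm2, and both gene orders began with 21C. Lcn2 is also carried in neutrophil granules, so the neutrophil markers are given beside it: their sum in FR was 3.05 CPM in 21C, 2.34 in 18B, 3.13 in 18D and 4.65 in 20D, and 3.94 to 20.0 CPM in the other 8 mice. The highest sum, 20.0 CPM in FR, was that of 80B, which also had the highest Lcn2. Mouse 8C had a sum of 19.1 CPM with Lcn2 at 122 CPM, and 8D a sum of 3.94 CPM with Lcn2 at 508.5 CPM. The part of neutrophils in the Lcn2 levels was not tested, and in bulk tissue more cells of a type and more RNA per cell cannot be told apart.

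Orm1, Hp and Hpx kept the order of mice over a narrower range. Orm1 in FR had a lowest, median and highest level of 562, 1746 and 2554 CPM in Con and of 875, 1839.5 and 5040.5 CPM in PB. Hp had 2239.5, 6774 and 9869.6 CPM in Con and 2287, 5952 and 12284 CPM in PB. Hpx, the most abundant of the 3, had 3277, 9258 and 14172 CPM in Con and 3708, 8670.3 and 17697 CPM in PB. The highest mouse was 8.97-fold (Orm1), 5.49-fold (Hp) and 5.4-fold (Hpx) above the lowest, with 21C the lowest and 20B the highest for each of them. Orm2 took 0.86 to 5.8% of the orosomucoid pair in 21C, 18B, 18D and 20D (10.9% in the FFPE library of 20D) and 5.6 to 33.1% in the other mice.

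The fibrinogen chains had the smallest range between mice. In FR, Fga ran from 8595 CPM to a median of 12705 and a highest of 13349 CPM in Con, and from 5859 to a median of 9659 and a highest of 13533 CPM in PB. Fgb ran from 5861 (median 9357) to 10218 CPM in Con and from 3902 (median 6431) to 10309 CPM in PB. Fgg ran from 4874 (median 7455) to 7826 CPM in Con and from 3354 (median 5327) to 8227 CPM in PB. The highest mouse was 2.31-fold (Fga), 2.64-fold (Fgb) and 2.45-fold (Fgg) above the lowest, which was 18D for all 3 chains, and the highest was 80B.

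Mice 21C, 18B, 18D and 20D were the 4 lowest of 12 in 39 of the 40 orders that 10 genes and 4 preparations give. The exception was Orm2 in FFPE, where 20D (51.5 CPM) lay above 8C (50.6 CPM). The 4 preparations of a mouse share the animal, so these orders are not independent of each other, and no cause of the difference between mice was tested. Housing, time of day and health of single mice were not analysed here.

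**Figure D1:**
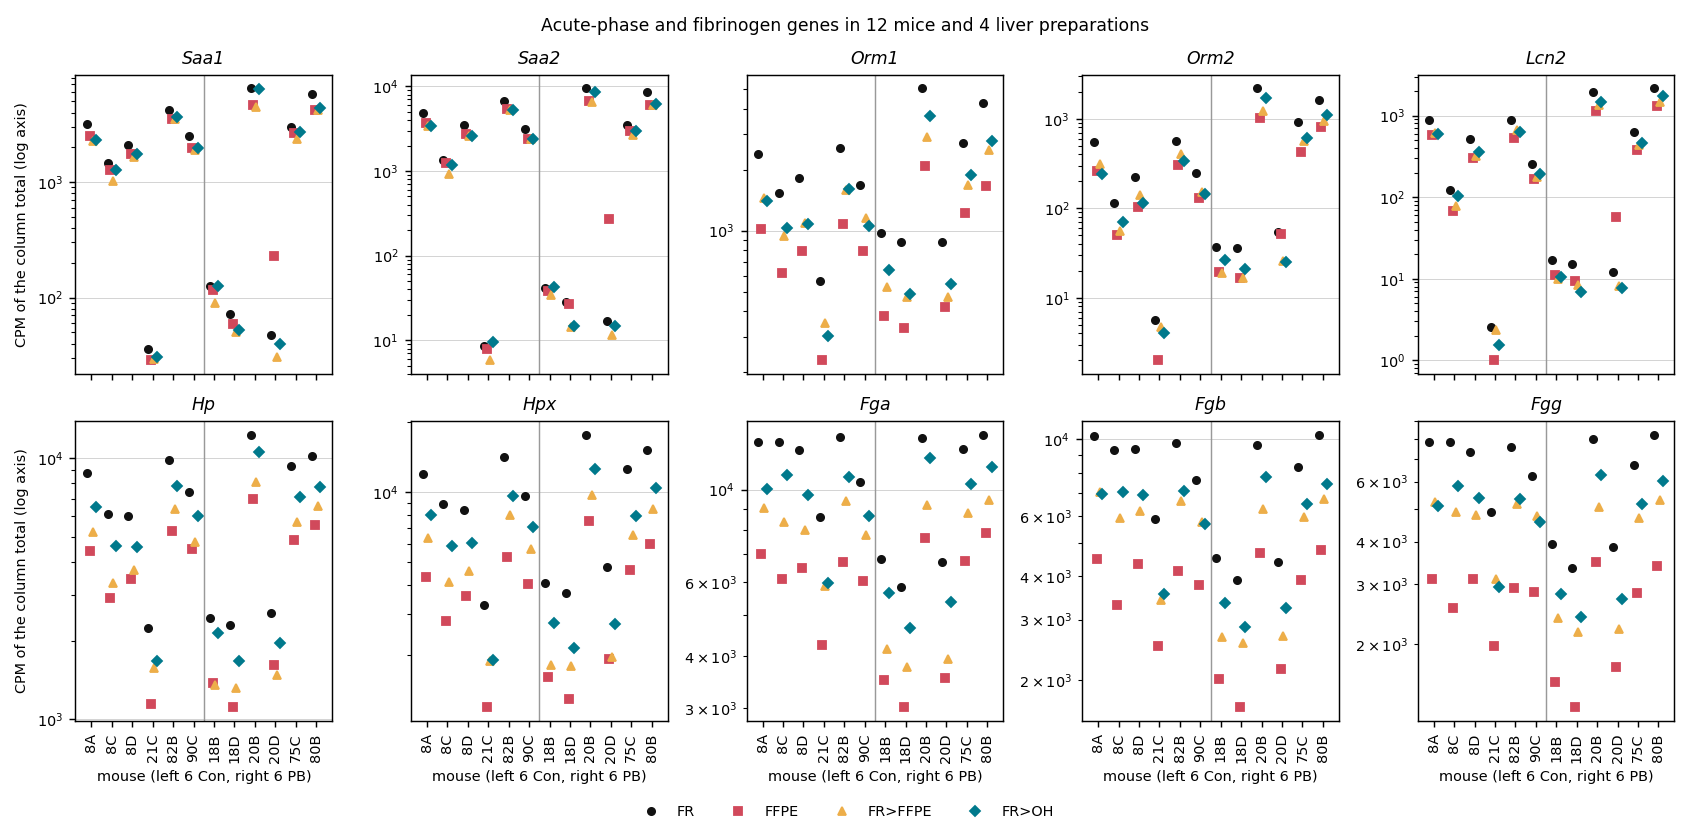
Level of each gene in CPM of the column total (log axis) in the 12 mice, with 1 point for each of the 4 preparations; the vertical line parts the 6 Con from the 6 PB mice. Mice 21C, 18B, 18D and 20D lie below the other 8 in all panels but for Orm2 in FFPE (20D above 8C), and the FFPE library of 20D lies above its 3 other libraries for Saa1, Saa2 and Lcn2.

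Set against the other genes, the spread between mice of the same group was large for all 10. The standard deviation of log2(CPM + 1) between mice, pooled over the 8 groups, had a median of 0.195 over 9681 genes with a mean of at least 5 CPM. Saa2 had the largest of all (3.86), Lcn2 the 2nd largest (3.29), Saa1 ranked 4 (2.90) and Orm2 7 (2.61). Orm1 (1.04), Hp (1.01) and Hpx (0.95) ranked 35, 40 and 52, and Fgb (0.53), Fgg (0.48) and Fga (0.48) ranked 267, 344 and 349. These ranks describe the genes and were not tested, since the 4 preparations share their mice.

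Splitting the variation of each gene over the 48 libraries showed where it lay. The mouse, within its treatment, took 97.8% of the sum of squares of log2(CPM + 1) for Lcn2, 95.1% for Saa1, 94.8% for Orm2 and 93.6% for Saa2, against a median of 21.2% over all genes. It took 85.9% for Hp, 80.7% for Orm1 and 73.3% for Hpx, and 56.7, 51.6 and 42.9% for Fga, Fgb and Fgg. The preparation took 0.39 to 0.54% for Saa1, Saa2 and Lcn2 and 2.26% for Orm2. For the fibrinogen chains it took 34.5% (Fga), 38.4% (Fgb) and 48.8% (Fgg), near the median of 43.9% over all genes.

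**Figure D2:**
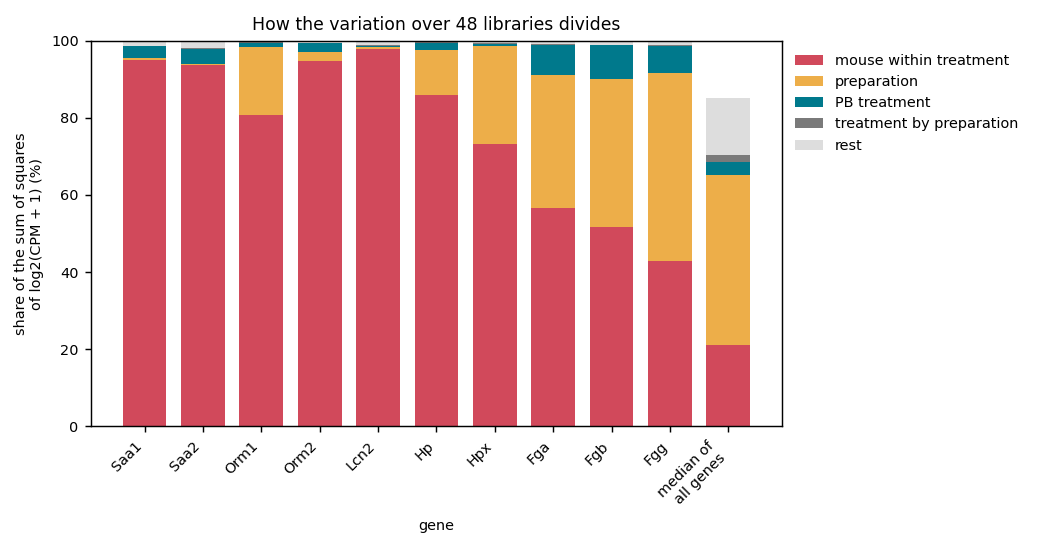
Share of the sum of squares of log2(CPM + 1) over 48 libraries (percent) that went to the mouse within its treatment, the preparation, PB treatment, treatment by preparation and the rest, for each gene. The mouse share falls from 97.8% in Lcn2 to 42.9% in Fgg; the last bar stacks the medians over all genes, each taken on its own, so it does not add up to 100.

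The genes most like each of the 10 were mostly others of the 10. Over the 48 libraries, after each group's mean was subtracted, log2(CPM + 1) of Saa1 and Saa2 correlated with r = 0.997, Hp and Hpx with r = 0.996, Fgb and Fgg with r = 0.995, and Lcn2 and Orm2 with r = 0.992. The nearest genes outside the 10 were Fgl1, a liver protein related to fibrinogen, for Saa1 (r = 0.984), Apcs, serum amyloid P, for Orm1 (r = 0.992), Itih4, an inter-alpha-trypsin inhibitor chain, for Hp (r = 0.991) and Hpx (r = 0.991), Serpina10 for Fga (r = 0.979) and Ambp for Fgb and Fgg (r = 0.982 each). Hamp, the iron hormone hepcidin, ran the other way, with r from -0.77 (Fgg) to -0.85 (Hp), and was named after its values were seen. All of these r share the same 12 mice and 48 libraries, so they describe likeness only.

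Of 24 other acute-phase genes listed, 21 reached 5 CPM on average, and 17 of these had a spread between mice above the 95th percentile of all genes (a standard deviation of 0.425). Saa3, an inducible serum amyloid A of macrophages and other cells, was named after its values were seen; it ranked 3 (2.91) and ran from 1.56 CPM in 21C to 691 CPM in 80B in FR. Of the inflammatory signalling genes, 3 of 18 lay above that percentile: Socs3, Osmr and Il1r1, named after their values were seen. Socs3 had the largest spread of the 3 (0.82) and ran from 2.13 CPM in 20D to 41.7 CPM in 90C in FR. Il6 itself, also named after its values were seen, was at 0 to 0.151 CPM in every library. Of the genes that fall in an acute-phase response, such as albumin, 1 of 13 lay above it, and of the partners and receptors, 5 of 15.

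Hpx, Fgb and Fgg were lower in liver fixed directly in formalin than in frozen liver, in Con and in PB mice. In Con, Fgg was at 4874 to 7826 CPM (median 7455) in FR and at 1980.0 to 3117 CPM (median 2890.2) in FFPE, with no overlap. In PB it was at 3354 to 8227 CPM in FR and at 1310.0 to 3475 CPM (median 2266) in FFPE, where the groups overlapped. Hpx was at 1192 to 5285 CPM (median 3800.3) in FFPE of Con and at 1285 to 7510.5 CPM (median 3271) in FFPE of PB, overlapping FR in both. These 3 genes were the ones to pass in both treatments. Fgg was 2.45-fold lower in FFPE on average (log2 -1.29, SE 0.19, adjusted p = 4.99e-08, edgeR's quasi-likelihood test with Benjamini-Hochberg adjustment over 13370 genes), Fgb 2.22-fold lower (log2 -1.15, SE 0.20, adjusted p = 3.02e-06) and Hpx 2.59-fold lower (log2 -1.37, SE 0.35, adjusted p = 0.000654). In the same mouse, Hpx was lower in FFPE than in FR in 12 of 12 mice, by log2 ratios from -1.66 to -1.24 (median -1.38). A call needed an adjusted p under 0.05 and a 2-fold change in both treatments, and these 3 of the 10 genes met it, against 1.28% of all genes called lower.

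The other 7 genes had negative log2 values in FFPE but did not meet the call. Orm1 had a log2 of -1.25 (SE 0.38, adjusted p = 0.00379), Hp of -0.88 (SE 0.37, adjusted p = 0.0309) and Fga of -0.91 (SE 0.19, adjusted p = 3.24e-05). Orm2 (-1.03), Lcn2 (-0.71), Saa2 (-0.39) and Saa1 (-0.34) had standard errors of 0.81 to 1.03, since the test without the mouse counts the spread between mice as error. The 95% interval for Saa2 was -2.45 to 1.68, so a large change in either direction lies inside it. The median over the 10 genes was -0.97, against 0.32 over all 13370 genes.

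Fitted with each mouse as its own block, which tissue from the same animal allows, the intervals were far narrower. Orm1 was then called as well, at a log2 of -1.25 (SE 0.03, adjusted p = 2.63e-35), and 4 of the 10 genes were called lower, against 1.33% of all genes. By the adjusted p alone, with no fold required, 7 of the 10 were lower in both treatments (Orm1, Orm2, Hp, Hpx, Fga, Fgb and Fgg), against 14.4% of all genes. Lcn2 had a log2 of -0.52 (SE 0.13), Saa1 of -0.06 (SE 0.13) and Saa2 of 0.10 (SE 0.20), and those 3 averages include the FFPE library of mouse 20D described below. Without that library, an alternative chosen after seeing the data, the blocked values were -0.74 (SE 0.04) for Lcn2, -0.31 (SE 0.04) for Saa1 and -0.34 (SE 0.05) for Saa2, and Orm2 (-1.08, SE 0.05) joined the called genes.

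The scaling of the libraries bears on all of these values. Rescaled by TMM (edgeR's trimmed mean of ratios), the median of all genes in FFPE against FR moved from 0.32 to 0.04, and with the divisor behind the authors' log2 CPM table, which counts more reads than the genes hold, to -0.63. Of all genes called, 11.8% were lower in FFPE with the main scaling, 45.9% with TMM and 97.6% with the authors' divisor. The 10 genes lay below the median of all genes under each of them. Their median was -1.25 with TMM and -1.92 with the authors' divisor. The calls among the 10 rose to 5 and 6 genes, while the genes called lower among all 13370 rose from 171 to 485 and 2942. Relative to the median of all genes, Hpx was at -1.70, Fgg at -1.62, Orm1 at -1.57 and Saa1 at -0.66 with the main scaling.

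The lane cannot be separated well from the preparation, since 10 of 12 FFPE libraries ran on lane 1 and all FR libraries on lanes 2 and 3. With the lane as a covariate and no block, none of the 10 genes was called in FFPE, and 6 of them had a positive log2, from 0.13 (Orm1) to 4.01 (Saa2, SE 2.05, adjusted p = 0.111), none of the 6 with an adjusted p under 0.05 in edgeR's test. The FFPE libraries outside lane 1 came from mice 75C and 80B, which are among the 8 mice with high levels. With the mouse as a block beside the lane, a fit chosen after seeing the data, all 10 log2 values were negative. In that fit 6 genes were called: Orm1, Orm2, Lcn2, Hpx, Fgb and Fgg. The share of all genes called in it was not counted, so these 6 have no background beside them.

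When freezing came before formalin, none of the genes was called against FR. In FR>FFPE the 10 genes had log2 values from -0.91 (Hpx, SE 0.35) to -0.42 (Saa1, SE 0.85), with a median of -0.60 against 0.34 over all genes. The count of 0 stands against 0.0224% of all genes called lower by edgeR; at an unadjusted p under 0.05 in both treatments there were 3 of the 10 in edgeR, 4 in DESeq2 and 4 in limma, the last 2 also without a call. The blocked fit called none either (0.0224% of all genes), but by the adjusted p alone 9 of the 10 were lower (all but Saa2), against 7.91% of all genes. Fgg was at 3119 to 5222 CPM in Con (median 4842) and 2169 to 5298 CPM in PB (median 3543), between FR and FFPE.

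In FR>OH, the ethanol control, the log2 values ran from -0.69 (Orm2, SE 0.80) to -0.24 (Saa1, SE 0.84), with a median of -0.44 against 0.18 over all genes. None of the 10 was called, against 0.0524% of all genes; at an unadjusted p under 0.05 there was none in edgeR, 1 in DESeq2 and 2 in limma. The blocked fit also called none (0.0748% of all genes), and by the adjusted p alone 8 of the 10 were lower (all but Saa1 and Saa2), against 10.2% of all genes. Hp, Hpx and the 3 fibrinogen chains had the same order of medians in Con and in PB, highest in FR, then FR>OH, then FR>FFPE and lowest in FFPE.

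**Figure D3:**
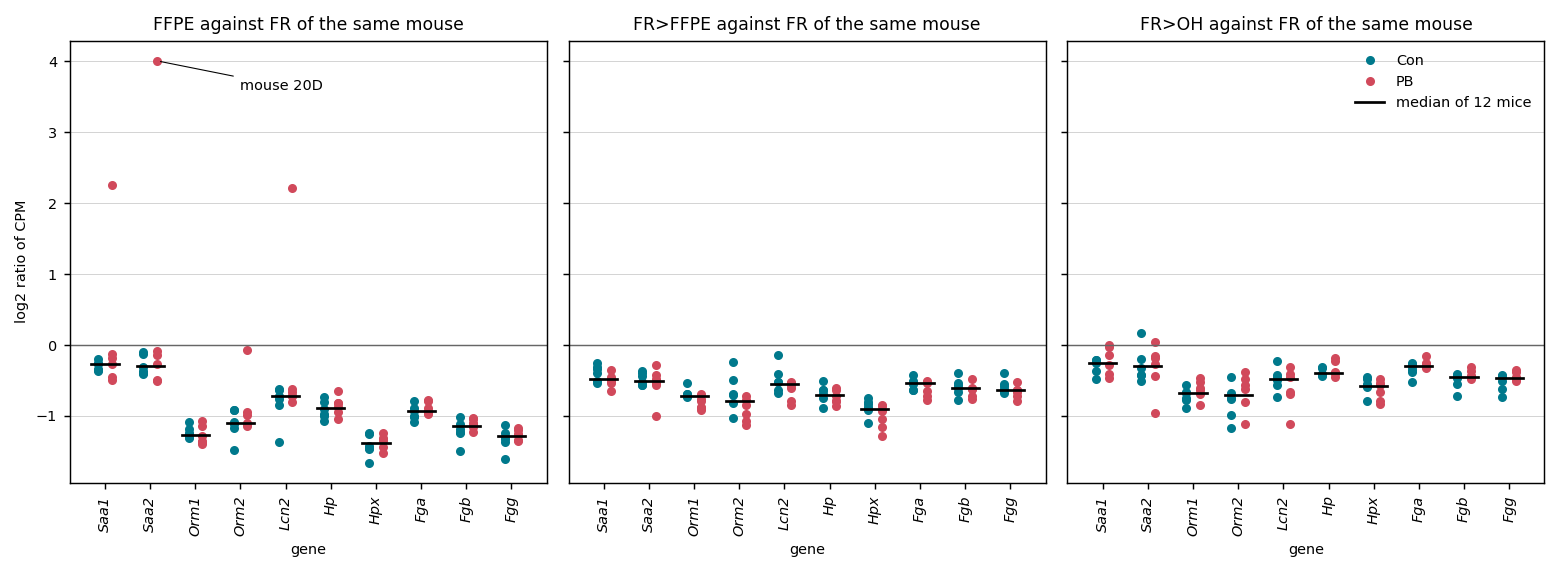
Log2 ratio of CPM in each embedded preparation to FR of the same mouse, for each gene, with 1 point per mouse (Con and PB apart) and a bar at the median of 12 mice. Hpx in FFPE lies between -1.66 and -1.24, and mouse 20D stands apart in FFPE for Saa2 (4.01), Saa1 (2.26), Lcn2 (2.21) and Orm2 (-0.07).

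FFPE against FR>FFPE compares formalin on fresh and on frozen tissue. Fgg had a log2 of -0.68 (SE 0.19, adjusted p = 0.00399) and Fgb of -0.56 (SE 0.20, adjusted p = 0.0334), while Saa1 (0.09, SE 0.84) and Saa2 (0.07, SE 1.02) were near 0. None of the 10 was called, against 0.015% of all genes, with 1 of the 10 at an unadjusted p under 0.05 in both treatments in edgeR and in DESeq2 and 3 in limma, of which 2 (Fgb and Fgg) were called by limma. Blocking by mouse gave no call (0.0224% of all genes), and by the adjusted p alone 6 of the 10 were lower (Orm1, Hp, Hpx, Fga, Fgb and Fgg), against 12.1% of all genes. Under the block Saa1 (0.38, SE 0.13, adjusted p = 0.014) and Saa2 (0.57, SE 0.21, adjusted p = 0.0206) were above 0 in edgeR's test. Without the FFPE library of 20D they were at 0.13 (SE 0.04, adjusted p = 0.00634) and 0.14 (SE 0.05, adjusted p = 0.0197). With that library, they were at 0.65 and 1.00 in PB, which holds 20D. In Con they were at 0.11 (SE 0.18, adjusted p = 0.704) and 0.14 (SE 0.27, adjusted p = 0.751). With the lane beside the block only Con could be fitted. There Saa1 was at -1.04 (SE 0.49, adjusted p = 0.291) and Saa2 at -2.08 (SE 0.78, adjusted p = 0.163), so their direction depends on the fit.

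Ratios between genes of the same library do not depend on its scaling. The log2 ratio of Fgg to Fga was lower in FFPE than in FR in 12 of 12 mice, by a median of -0.38 (-0.52 to -0.24), and in FR>OH in 12 of 12, by a median of -0.19. In FR>FFPE it was lower in 9 of 12, by a median of -0.03. The ratio of Hpx to Hp was lower in 12 of 12 mice in each of the 3, by a median of -0.49 in FFPE, while FR>FFPE had -0.22 and FR>OH -0.24. Hpx to Saa1 was lower in 12 of 12 in FFPE, by a median of -1.14, which includes mouse 20D at -3.57. The genes thus did not differ between preparations by a common factor. Summed within a pair, Saa1 plus Saa2 had a median log2 ratio of FFPE to FR of -0.29 and Orm1 plus Orm2 of -1.21.

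For lower calls, the other listed genes of the pathway were read against 1.28% of all genes in FFPE (1.33% with the block). In FFPE against FR, 1 of 24 other acute-phase genes was lower (Serpina3k, a serine protease inhibitor, log2 -1.10, SE 0.08, adjusted p = 5.99e-17 in edgeR) and 3 with the block, with a list median of -0.57. Among the inflammatory signalling genes called higher was Bcl3, an NF-kB cofactor (1.43, SE 0.175), which was also called higher in FR>OH (1.14). Higher was the common direction of calls: over all genes, 1273 were called higher and 171 lower in FFPE. In FR>OH, 335 were called higher and 7 lower, so the higher calls of Bcl3 are not set apart from this general shift.

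Of 13 genes that fall in the acute-phase response, 5 were lower in FFPE, with the largest falls in Apoa2 (-1.32, SE 0.10) and Apoa1 (-1.23, SE 0.06), both apolipoproteins of high-density lipoprotein, and Ttr, the thyroxine carrier transthyretin (-1.31, SE 0.11). Those 5 are named because they were called lower, so their direction is no separate result. Of the 13, 0 were called higher in FFPE, and the list median was -0.77, against 0.32 over all genes. No cause was tested. Of 18 partners and receptors, Hbb-bs, a haemoglobin chain, was lower in FFPE (-1.49, SE 0.26) and Slc22a17, a lipocalin-2 receptor, was higher in FR>FFPE (1.31, SE 0.30). Over all genes, 530 were called higher and 3 lower in FR>FFPE, so that direction was the common one there. The other acute-phase, inflammatory and negative acute-phase lists had no call in FR>FFPE in edgeR. The 8 hepatocyte markers summed to 63770.5 to 96946 CPM in FR and 31227 to 44577 CPM in FFPE of Con mice. That sum holds Alb, Ttr and Apoa1, which are among the 5 genes called lower above, so it is not a separate measure of hepatocytes. The part of these markers in the result was not tested.

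The FFPE library of PB mouse 20D went against the 3 other libraries of its mouse for 4 of the genes. Saa2 was at 273 CPM there, against 17 CPM in FR, 11.4 in FR>FFPE and 14.9 in FR>OH. Saa1 was at 228.5 CPM against 47.9, 30.6 and 39.5 CPM, and Lcn2 at 56.6 CPM against 12.2, 8.06 and 7.74 CPM. Orm2 was at 51.5 CPM, close to its 54 CPM in FR, where the ratio of the other 11 mice gave 25.1 CPM. The remaining 6 genes were near the ratios of the other mice, with Hp the farthest from them (0.25 on the log2 scale).

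Ranked by how far the log2 ratio of FFPE to FR in 20D lay above the median of the other 11 mice, Saa2 (4.25), Lcn2 (2.84) and Saa1 (2.5) were the first 3 of 9681 genes, and Saa3 (2.44), Mt1 (2.04) and Mt2 (1.77) were next; Mt1 and Mt2, named after their values were seen, encode metal-binding proteins that inflammation also induces. Orm2 (1.02) was 11th. In that library 27 genes (0.279%) departed by more than 1 in either direction, 4 of them among the 10, and in none of the other 35 libraries outside FR did any of the 10 do so. Saa2 made up 54.5% of its pair there, against 26.2 to 27.5% in the other libraries of 20D and 47.6 to 62.7% in the 8 high mice.

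The excess over the predicted level was 260 CPM for Saa2, 189 for Saa1, 49.2 for Lcn2 and 26.4 for Orm2. As a percent of the FFPE library of mouse 80B these were 4.29, 4.45, 3.74 and 3.24%, and of mouse 20B they were 3.89, 4.08, 4.37 and 2.57%. As a percent of mouse 8C they ran from 14.7 to 72.7%. For Saa3 the excess was 4.2% of the level in 80B and 10.4% of that in 20B. Against the other high mice it ran from 12.6% (8A) to 1122.9% (8C). The library of 20D ran on lane 1, as did that of 20B, while that of 80B ran on lane 2. The neutrophil markers summed to 6.01 CPM in it, against 4.65, 6.67 and 6.02 CPM in FR, FR>FFPE and FR>OH. A piece of liver with another level, RNA from another sample and an error in reading barcodes were not tested.

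**Figure D4:**
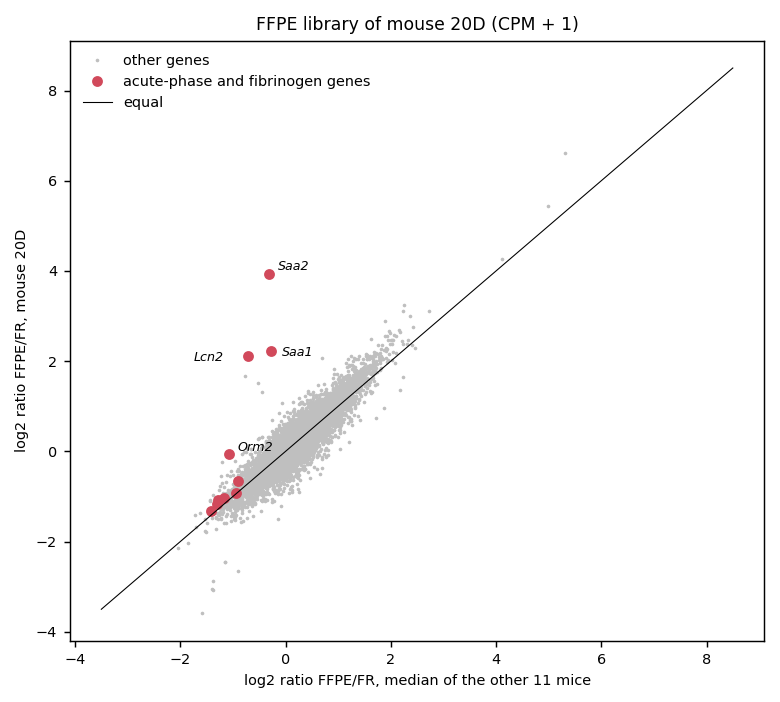
Log2 ratio of FFPE to FR (on CPM + 1) in mouse 20D (vertical) against the median of the other 11 mice (horizontal), for 9681 genes; the line marks equal values and the 10 genes are in red. Saa2, Lcn2 and Saa1 lie above the line by 4.25, 2.84 and 2.5, Orm2 by 1.02, and the other 6 near it.

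Phenobarbital was compared with water to see whether the drug moved these genes and whether the preparation changed that. In FR the groups overlapped for all 10 genes: the medians of Saa1 were 2307 CPM in Con and 1562 in PB, those of Orm2 237 and 493, and those of Fgg 7455 and 5327. In edgeR 0 of the 10 were called in FR, against 2% of all genes. The same count held for FFPE (1.92% of all genes), for FR>FFPE (1.87%) and for FR>OH (2.42%). None had an unadjusted p under 0.05 in edgeR, DESeq2 or limma in any of the 4.

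With the 4 libraries of each mouse summed, so that the 12 treated animals are the units, none was called either, against 2.18% of all genes, and none had an unadjusted p under 0.05 in edgeR or DESeq2. The log2 fold change of PB against Con was 1.57 for Orm2 (95% interval -0.75 to 3.88), 0.87 for Lcn2 (-1.82 to 3.56), 0.48 for Orm1 (-0.57 to 1.53) and 0.20 for Saa1 (-2.14 to 2.54). Saa1 and Saa2 (0.15) had a positive log2 while their PB medians were below those of Con, and their sign turned when mouse 20B, 21C or 80B was left out, and that of Saa2 also without 8C. The narrowest intervals were those of the fibrinogen chains, at -0.25 (-0.77 to 0.27) for Fga, -0.33 (-0.89 to 0.24) for Fgb and -0.28 (-0.80 to 0.24) for Fgg. The 4 mice with the lowest levels were 3 of the 6 PB mice and 1 of the 6 Con mice, a count that was not tested.

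**Figure D5:**
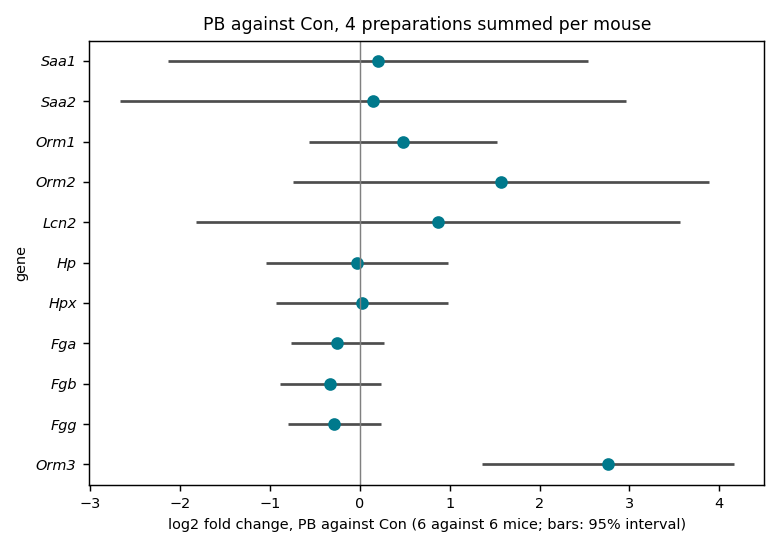
Log2 fold change of PB against Con over 12 mice (horizontal axis) with its 95% interval, for the 10 genes and Orm3, from counts summed over the 4 preparations of a mouse. The interval of Orm3 (1.36 to 4.16) lies above 0 and those of the 10 genes cross it.

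An interaction term asked, for each of the 3 embedded preparations, if PB moved the genes there as in FR. The 3 interaction tests gave 0 calls among them in edgeR, against 0% of all genes in each, and 0 at an unadjusted p under 0.05 in edgeR, DESeq2 and limma. Under the block, 1 had an unadjusted p under 0.05 with FFPE (Saa2, 0.82, adjusted p = 0.581; -0.05, SE 0.10, adjusted p = 0.925 without the FFPE library of 20D) and 1 with FR>FFPE (Orm1, -0.14, adjusted p = 0.534), none with FR>OH.

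Of the 4 lists, with 24, 21, 13 and 18 genes tested, 1 gene was called in PB over the 12 mice, against 2.18% of all genes. Orm3, the third orosomucoid gene and a near copy of Orm1 and Orm2, was 6.79-fold higher in PB (log2 2.76, SE 0.65, adjusted p = 0.0141, edgeR). In FR it was at 0.70 to 8.29 CPM in Con and at 8.89 to 91.2 CPM in PB, with no overlap, and PB mice 18B, 20D and 18D (8.89, 9.70 and 11.3 CPM) were above the highest Con mouse. In FFPE the groups overlapped, at 0.995 to 10.1 CPM in Con and 4.85 to 48.4 CPM in PB, with an adjusted p of 0.0554 in edgeR. Its reads could be shared with Orm1 and Orm2, which were at much higher levels, so its count is uncertain.

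A panel of rat liver genes measured by TempO-Seq, in which pairs of probes are ligated on the target RNA, held 7 of the 10 genes (Saa1, Saa2 and Orm2 were not among those analysed). These were male F344 rats given vehicle, with 6 libraries in each of FR (measured as purified RNA), FR>FFPE and FFPE (both measured as lysates). The sample type cannot be told apart from the preparation, and the labels number the samples without saying which came from the same rat, so p-values measure the spread between libraries. FFPE libraries held 139475 to 889128 counts and FR libraries 3040915 to 3970187. Orm1 (log2 -1.79, SE 0.32), Hpx (-2.10, SE 0.23), Fga (-1.40, SE 0.27) and Fgg (-2.0, SE 0.24) were called lower in FFPE than in FR and Lcn2 higher, in edgeR with TMM, so 5 of 7 were called, against 64.3% of all genes tested.

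Those rat values depended on the scaling. Orm1 had a median of 6895 CPM of the total in FR and 6415 CPM in FFPE, and Hpx of 4693 and 3178 CPM. Scaled by the total count alone, Lcn2 and Hp were called, both higher, and Fga (0.19) and Fgb (0.64) turned positive. The share of all genes called with that scaling was not counted, so these calls have no background beside them. Lcn2 was at 0 to 3 counts per library in FR and at 4 to 26 counts in FFPE, which is 0 to 0.88 CPM against 15.6 to 57.4 CPM. In FR>FFPE, Orm1 (-2.11, SE 0.32) and Fgg (-1.20, SE 0.23) were called lower and Lcn2 (1.61, SE 0.72, adjusted p = 0.0472) higher, so 3 of 7 were called, against 49.9% of all genes tested.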

How the data were processed

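Total RNA of 48 mouse liver libraries was depleted of ribosomal RNA and sequenced as stranded libraries. The authors aligned reads with STAR 2.5.3a to GRCm38 and deposited expected counts per gene, estimated by expectation maximization on RefSeq transcripts in Partek Flow; 92.2% of the values are whole. Frozen tissue and paraffin blocks had different RNA extraction kits. The authors also deposited log2 CPM of 13370 genes, and rat liver expected counts from TempO-Seq.

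Members, lists and tests were chosen with earlier results of these data known. Counts were rounded, genes with a geometric mean over 1 count (offset 1e-04) were kept, and the library size was the total over kept genes. edgeR 4.0.16 (quasi-likelihood) in R 4.3.3 was fitted to 8 group means. P-values were adjusted over all genes by Benjamini-Hochberg; called genes passed 0.05 and changed 2-fold, in Con and PB alike for preparations. Sizes are averages of both. The rat table had its own fit with TMM and edgeR's filter. Spread and likeness used log2(CPM + 1). Exon lengths came from GENCODE M21. Scripts were tested on simulated data.

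The mouse labels pair libraries: over 7953 genes, 72 of 72 pairs from the same mouse had a correlation of deviations over 0.1 (median 0.703, against -0.125 for other mice). Named genes are the 10 members, up to 3 called genes per list and direction, the 3 genes most like each member, and Rn45s and Cyp2b10; others are marked as named after their values were seen. Alternatives were TMM, the authors' divisor, totals without genes over 1% of a library, DESeq2 1.42.0, limma 3.58.1 on the deposited log2 CPM, other filters, adjusted p alone, lane, block, fewer libraries and each mouse left out. Each result's own depth is the library total given above. For the inflammatory signalling list, 1 called gene and the counts of calls that include it are not reported here.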

Additional observations from a re-analysis of the deposited data

Results flagged for a closer look

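Of 140 groups of 6 tested for a single library or ratio that stands apart (Dixon's test, which chance passes in about 1 group of 20), 9 stood apart. For the log2 ratio of FFPE to FR in PB mice, mouse 20D was the highest for Saa1 (2.26, next -0.13), Saa2 (4.01, next -0.08), Lcn2 (2.21, next -0.62) and Orm2 (-0.0682, next -0.94), all from the same FFPE library. The cause was not tested.

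In Con mice, 21C was the lowest for the log2 ratio of FFPE to FR of Lcn2 (-1.37, next -0.85), where its FFPE level was 0.995 CPM. It was also the lowest for Fga in FFPE (4233 CPM, next 6024.5), Fgb in FR>FFPE (3408 CPM, next 5764) and Fgg in FR>FFPE (3119 CPM, next 4762). Mouse 90C was the highest Con mouse for the log2 ratio of FR>FFPE to FR of Orm1 (-0.535, next -0.69).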

How the results depend on the processing

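Among recomputed counts of genes called among the members, 266 stayed within 1.5 times of the value given and 12 did not. For most of these the value given was 0, and a recomputed 0 was scored as staying. For FFPE against FR, 3 were called as reported, 5 with TMM, 6 each with the authors' divisor, DESeq2 and limma, 0 with the lane covariate, and 3 to 4 with single mice left out. With the mouse as replicate block, 4 were called, 6 with the lane beside the block and 5 without the FFPE library of 20D, both chosen after seeing the data. Counts or shares over all genes are given above only for the fit as reported, TMM, the authors' divisor and the block. For FFPE against FR>FFPE, 2 were called with the authors' divisor and with limma. For PB in FR, 1 (Fgb) was called in lane 2 alone, which held 2 PB mice, both low. In rat liver, 2 were called in FFPE by the total count and 6 in FR>FFPE by adjusted p alone. The share of all rat genes called was not counted for either.

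Directions turned as follows. With the lane covariate, the log2 of FFPE against FR was 3.14 (Saa1), 4.01 (Saa2), 0.13 (Orm1), 2.10 (Orm2), 3.26 (Lcn2) and 0.58 (Hp), and with the block it was 0.10 for Saa2. For FFPE against FR>FFPE, Saa1 was -0.48 with the authors' divisor and -0.21 with limma, Saa2 was -0.49 with the divisor, and Lcn2 was 0.0337 with the block. In Con, the lane beside the block moved Saa1 from 0.11 to -1.04 and Saa2 from 0.14 to -2.08. With single mice left out, PB against Con ranged from -0.34 to 0.50 (Saa1), -0.44 to 0.50 (Saa2), -0.34 to 0.15 (Hp) and -0.27 to 0.19 (Hpx). In rat liver by the total count, FFPE against FR gave 0.19 for Fga and 0.64 for Fgb, and FR>FFPE against FR gave 0.66 for Fgb. The block changed no other call among the 10. The cause was not tested.

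The lane covariate could not be fitted for FR>OH against FR, for FR>FFPE against FR and FFPE against FR>FFPE over both treatments, or for PB and its interaction in FR>FFPE, since lanes 1 to 3 and 4 to 5 share no group. The 6 mice per treatment and their spread limit the PB comparison, and paralog splits limit Saa1, Saa2, Orm1, Orm2 and Orm3.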
